A study of Mus musculus with 38 samples.

Results

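Pax6 was examined at all of its transcription starts that have a promoter window in the deposited data, in neurosphere cultures of neural stem and progenitor cells (NSPCs). The cells came from the subventricular zone (SVZ) of mice aged 3 months (young adult) and 18 months (aged). The gene was chosen by its promoter H3K4me3 levels at the 2 ages, so these levels are described without a test. Its members are the 27 distinct windows that the chromatin immunoprecipitation (ChIP) table gives for Pax6 transcripts, of 72923 windows in all, and the 1 Pax6 entry among the 25965 genes of the RNA table. Young adult and aged NSPCs came from male C57BL/6JBabr mice, with SVZ tissue of 5 mice pooled into each derivation, 3 derivations per age made on different days, and cells harvested at passage 2 in medium with EGF and FGF. No group carried a transgene or a treatment, and the 2 groups differed by age. One further RNA library per age came from C57BL/10 mice, a separate cohort with no replicate. Each C57BL/6JBabr derivation gave RNA, H3K4me3, H3K27me3, Input, bisulphite (BS) and oxidative bisulphite (oxBS) libraries, and the cultures lack the niche that surrounds these cells in the brain.

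Pax6 encodes a transcription factor with a paired domain and a homeodomain that is needed for eye and forebrain development, and that in the adult SVZ is known for its part in the generation of olfactory bulb dopaminergic interneurons. The mouse gene is known to be transcribed from the promoters P0, P1 and Pα. Transcripts from P0 and P1 encode the full protein, with or without the residues of the alternative exon 5a, while Pα lies inside the gene and gives rise to a form without the paired domain. H3K4me3 marks active promoters, H3K27me3 is the mark of Polycomb repression, and both can lie on one promoter. BS-seq does not separate 5-methylcytosine (5mC) from 5-hydroxymethylcytosine (5hmC), whereas 5mC is the one form that oxBS-seq reads.

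The gene lies on the plus strand of chromosome 2 of GRCm38, from 105668896 to 105703160 in the deposited tables (ENSMUSG00000027168). RefSeq transcripts of GRCm38.p6 start at 105668896 (P0), at 105675744 and 105676129 (P1), and at 105682463 (Pα). Those from P0 and P1 share a first coding base at 105680298 and encode proteins of 436 or 422 amino acids. Those from Pα start in the intron after the exon with that codon, and their first coding base is at 105685829, giving a protein of 286 amino acids. The 27 starts in the ChIP table were chained over gaps of up to 1000 bp into 11 clusters, numbered along the gene. Cluster 1 (3 starts, 105668896 to 105668935) holds P0, cluster 4 (8 starts, 105675109 to 105676129) holds P1, and cluster 7 (7 starts, 105681712 to 105682637) holds Pα. The other 8 clusters hold 1 or 2 starts each. In GENCODE vM21, 6 of the 8 transcripts of cluster 4 are protein coding and 0 of the 7 of cluster 7, which are listed as processed transcripts or retained introns.

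The 250 bases upstream of P0 (chr2:105668646-105668895), of the first start of the P1 cluster (chr2:105674859-105675108) and of Pα (chr2:105682213-105682462) are shown because methylated calls were more frequent upstream of Pα than upstream of P0 at the same number of CpG sites. They are read from the GRCm38.p6 genome on the plus strand, and CG in capitals marks each CpG.
P0: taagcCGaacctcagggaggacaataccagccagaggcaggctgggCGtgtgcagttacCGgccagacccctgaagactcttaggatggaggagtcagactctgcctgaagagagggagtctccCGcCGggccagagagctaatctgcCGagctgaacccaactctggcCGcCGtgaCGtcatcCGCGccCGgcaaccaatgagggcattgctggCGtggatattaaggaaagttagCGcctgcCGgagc
P1: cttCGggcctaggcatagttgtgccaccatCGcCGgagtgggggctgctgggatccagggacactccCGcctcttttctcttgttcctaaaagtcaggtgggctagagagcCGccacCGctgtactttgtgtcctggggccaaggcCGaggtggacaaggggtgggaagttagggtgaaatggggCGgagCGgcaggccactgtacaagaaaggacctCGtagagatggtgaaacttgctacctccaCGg
Pα: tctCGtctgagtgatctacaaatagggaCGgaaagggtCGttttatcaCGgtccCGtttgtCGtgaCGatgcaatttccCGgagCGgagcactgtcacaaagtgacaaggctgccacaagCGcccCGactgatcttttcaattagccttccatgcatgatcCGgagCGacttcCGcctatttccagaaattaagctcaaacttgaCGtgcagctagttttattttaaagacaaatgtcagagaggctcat
The P0 and Pα stretches hold 15 CpG each and the P1 stretch 11, against a median of 6 in the same 250 bases of 32851 RefSeq promoters, of which 27.3% hold at least 15. Among these CpG sites, 12 of 101 oxBS calls were methylated upstream of P0, 6 of 39 upstream of P1 and 45 of 71 upstream of Pα, all libraries together. BS calls were methylated in 18 of 131, 1 of 71 and 42 of 76. CCAAT was found in either orientation in the P0 stretch and not in the others, and 33.8% of all promoters hold it in this stretch. TATAAA was found in none of the 3 stretches, against 12.4% of all promoters. The P1 stretch lies before the first start of that cluster and ends upstream of both RefSeq P1 starts. It begins just before 6 kb from the first start, and since no oxBS call from 6 to 7 kb was methylated, its 6 methylated oxBS calls lie in its first bases. In these letters the Pα stretch thus has as many CpG as the P0 stretch and a larger share of methylated calls, a difference between pooled calls that was not tested.

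The highest H3K4me3 levels of the gene were at P1, where they were close between the ages while most windows of like level rose by more. ChIP values are the authors' log2 RPM (reads scaled to library size, RPM) over the 3 replicates, 1 value per age for each window of 5000 bp centred on a start, so they have no spread, no test between ages and an unknown depth. In young adult NSPCs H3K4me3 at the window of the median start of each cluster was 3.60 at P0, 6.24 at P1 and 2.46 at Pα, on the log2 RPM scale. In aged NSPCs the same windows held 3.53, 6.31 and 1.42. On the linear scale, obtained here from the log2 values and approximate because it is not given whether replicates were averaged before or after the logarithm, the young adult windows held 12.1, 75.7 and 5.49 RPM. Among all windows the young adult P1 level stood at the 96.0th percentile, P0 at the 49.5th and Pα at the 44.9th.

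**Figure D1:**
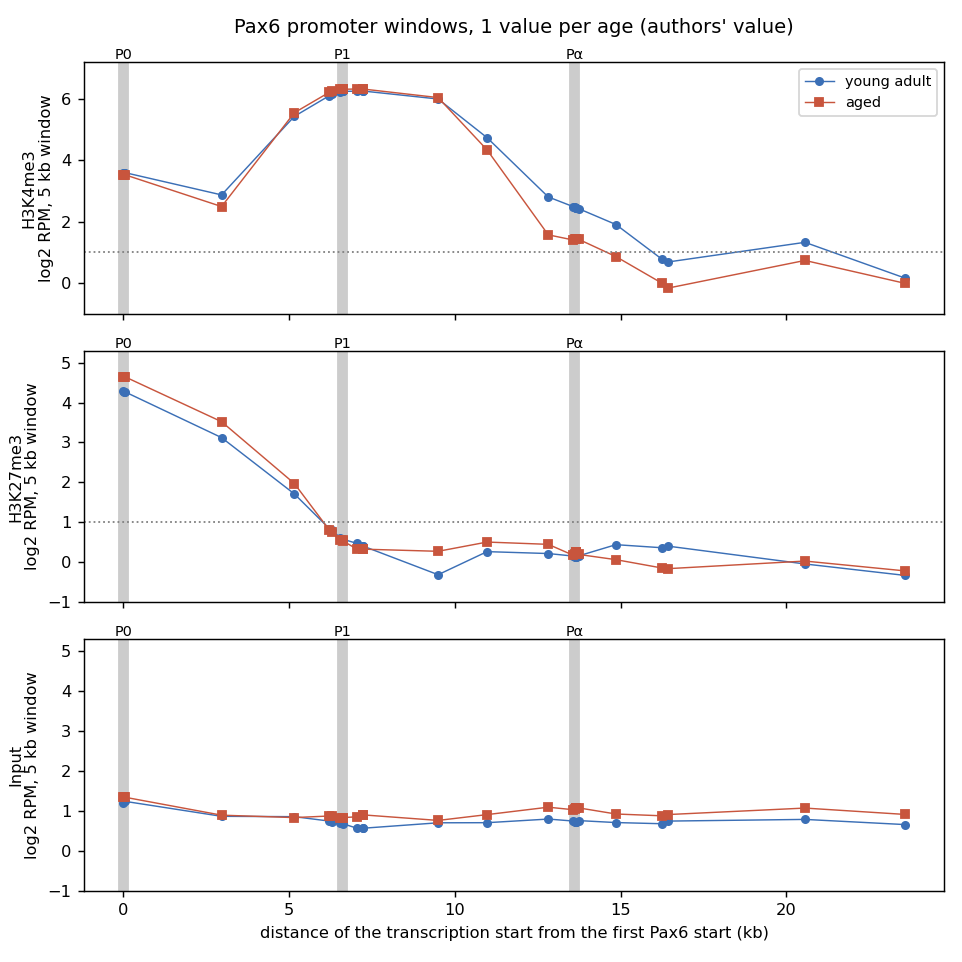
H3K4me3, H3K27me3 and Input (log2 RPM, the authors' single value per age) at the 27 Pax6 windows, placed by the distance of their start from the first Pax6 start (kb). Blue circles are young adult and red squares aged NSPCs, grey bars mark P0, P1 and Pα, and the dotted line is the level of 1. H3K4me3 peaks at P1 near 6.2 and 6.3 in the 2 ages. Aged H3K4me3 values lie below young adult ones at P0 (by 0.07), at cluster 2 (by 0.38) and from cluster 6 on. H3K27me3 is highest at P0 (4.27 and 4.64).

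H3K4me3 was lower in aged NSPCs from cluster 6 to the last start. The difference, aged minus young adult, was -0.40 at cluster 6 (start at 105679867) and between -1.23 and -0.999 at the 7 windows of the Pα cluster. It was -1.04 at cluster 8 (105683754), -0.78 and -0.85 at the 2 windows of cluster 9 (105685136 and 105685322), -0.59 at cluster 10 (105689455) and -0.17 at cluster 11 (105692483). At the 8 windows of the P1 cluster the difference was between 0.06 and 0.11, and at cluster 5 (105678391) it was 0.05. Upstream, it was -0.07 at the 3 windows of P0 and -0.38 at cluster 2 (105671860), with 0.12 at cluster 3 (105674055). At clusters 8, 10 and 11 aged H3K4me3 was under aged Input (0.86 against 0.92, 0.74 against 1.07 and -0.01 against 0.91). The first window of cluster 9 held -0.002 against an Input of 0.88 in aged NSPCs. In young adult NSPCs cluster 11 was already under Input (0.16 against 0.66), as was the second window of cluster 9 (0.68 against 0.74). The first window of cluster 9 was near Input (0.78 against 0.68), and clusters 8 (1.91 against 0.71) and 10 (1.33 against 0.79) were above it. Over all genes, windows with a mean level of 0 to 1 moved by a median of -0.17, as cluster 11 did, with 5% at or below -0.72.

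A window was counted when its ages differed by at least 1.5-fold and either exceeded 1 on the log2 RPM scale. By this rule 9 of the 24 Pax6 windows above that level were lower in aged NSPCs and 0 higher. Of all 43646 windows above the level, 0.341% differed by the rule, and 0.261% were lower. The 9 Pax6 windows are the 7 of the Pα cluster and those of clusters 8 and 10. Since H3K4me3 by age chose the gene, this count describes the choice and supports nothing. The window of cluster 10 stood just inside the rule, with a fold of 1.51, and the nearest outside it were cluster 6 and cluster 2, with folds of 1.32 and 1.30. Cluster 9 had folds of 1.72 and 1.80 at levels of 0.78 and 0.68 in young adult NSPCs, under the level of the rule. The 7 windows of the Pα cluster overlap by most of their length and are not separate measurements.

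Neighbouring windows share reads, so the fall was also read in linear RPM. On this approximate scale the largest loss was at cluster 6, from 26.6 to 20.2 RPM, whose window reaches from 105677367 to 105682367. The first window of the Pα cluster (Pax6-024, from 105679212 to 105684212) went from 6.99 to 2.97 RPM and its median window from 5.49 to 2.68 RPM. Cluster 8 went from 3.75 to 1.82 RPM and cluster 9 from 1.72 to 0.999 RPM. The window of cluster 5, from 105675891 to 105680891, overlaps that of cluster 6 over most of its length and held 63.8 RPM in young adult and 65.9 RPM in aged NSPCs. At P1 itself the window held 75.7 RPM in young adult and 79.5 RPM in aged NSPCs.

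**Figure D2:**
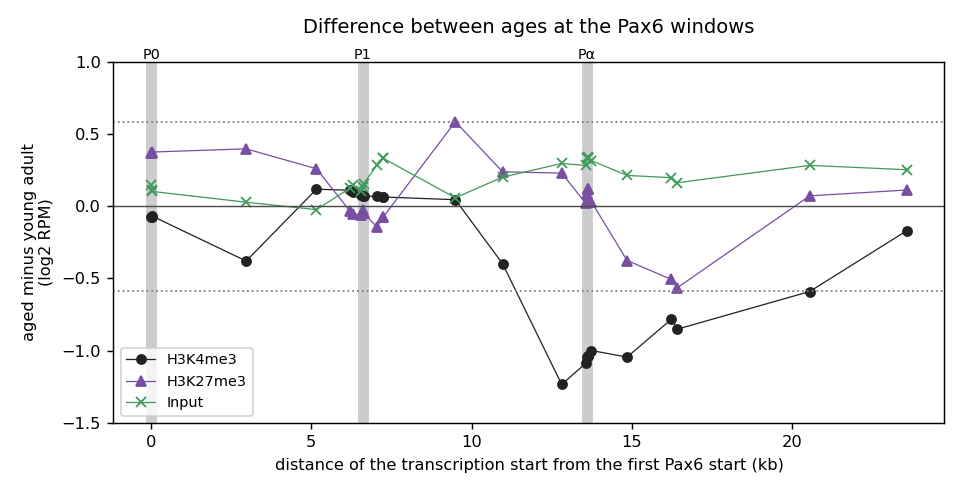
Difference between ages (aged minus young adult, log2 RPM) of H3K4me3, H3K27me3 and Input at the 27 Pax6 windows against the distance of their start from the first Pax6 start (kb). Dotted lines are 1.5-fold and grey bars P0, P1 and Pα. H3K4me3 lies below the lower line at the Pα cluster, between -1.23 and -0.999, where Input lies between 0.28 and 0.34.

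All windows above the level moved by a median of 0.21 in H3K4me3, and the move depended on the level. Windows with a mean level of 6 to 7 moved by a median of 0.23 and those of 1 to 2 by -0.05, with 5% of the latter at or below -0.49. At P1 the difference of 0.07 was thus below that median, and 0.07 was also below the 5th percentile of windows of that level (0.15). The same held at cluster 5 (0.05, in the same range of levels) and at cluster 3 (0.119, where windows with a mean level of 5 to 6 had a 5th percentile of 0.122 and a median of 0.22). Of windows of like mean level, 0.531% had a difference at or below that of P1, and 0.257% one at or below that of cluster 5. The share was 0.338% at cluster 6, 0.596% at Pα and 0.175% at cluster 8. It was 10.25% at P0, between 1.285% and 4.462% at clusters 2, 3, 9 and 10, and 58.13% at cluster 11. H3K4me3 by age chose the gene, so these shares are a description. With the median change of all windows subtracted, 11 Pax6 windows were lower by the rule (1.04% of all windows were), and the P1 difference of 0.07 falls below 0. At a level of 0 in place of 1, 11 Pax6 windows were lower (2.99% of all), and at 2-fold 7 were (0.0573% of all). Input rose at 26 of the 27 windows, by 0.33 at the median window of the Pα cluster, which is at the 90.6th percentile of all windows. Over all genes Input moved by a median of 0.04 at a mean Input of 0 to 1 and 0.03 at 1 to 2. The share of all windows whose Input rose was not computed, and the Pax6 windows overlap, so they are not separate measurements. After subtraction of each age's Input, 10 Pax6 windows were lower by the rule, against 0.898% of all windows. The part of Input in the difference was not tested further.

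H3K27me3 was high at the 5′ end of the gene. It was above a log2 RPM of 1 at 5 of the 27 windows, the 3 of P0 and those of clusters 2 and 3. At P0 it was 4.27 in young adult and 4.64 in aged NSPCs, at the 97.5th and 97.99th percentile of all windows. At cluster 2 it was 3.12 and 3.52, and at cluster 3 1.71 and 1.97. It fell off toward P1, with 0.58 and 0.55 at the median window there, and was 0.13 and 0.25 at Pα. P0 therefore carried H3K27me3 and H3K4me3 in the same window at both ages, and P1 carried H3K4me3 with an H3K27me3 level near that of Input (0.70 in young adult NSPCs).

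None of the 5 windows above the level differed by 1.5-fold in H3K27me3 (0 of 5, against 4.27% of all windows above the level). The count was also 0 with Input subtracted (8.89% of all), with the median change subtracted (4.37%) and at 2-fold (0.458%), and 1 of 26 at a level of 0 (10.9%). The differences of the 5 windows were 0.37 to 0.38 at P0, 0.40 at cluster 2 and 0.26 at cluster 3, higher in aged NSPCs. Over all genes, windows with a mean level of 4 to 5, as at P0, moved by a median of 0.13. Those of 3 to 4, as at cluster 2, moved by 0.09, and those of 1 to 2, as at cluster 3, by -0.01. The 95th percentiles at these levels were 0.391, 0.413 and 0.443, so all 5 differences lay under them. The largest difference of the gene, 0.59, was at cluster 5, where the level was -0.31 in young adult and 0.28 in aged NSPCs, under the level of the rule. At the Pα cluster H3K27me3 differed by 0.02 to 0.23, and at clusters 8 and 9, where H3K4me3 was lower, it differed by -0.38 and by -0.51 and -0.56.

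Pax6os1, a transcript antisense to the 5′ end of Pax6, has 2 windows that overlap those of P0. They held H3K4me3 of 3.58 and 3.56 in young adult and 3.46 and 3.46 in aged NSPCs, and H3K27me3 of 3.89 and 3.88 against 4.28 and 4.26. These values read largely the same DNA as P0. In RNA, Pax6os1 had 1 read in 1 of the 8 libraries.

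Pax6 RNA differed between the ages by less than the spread of the replicates. The RNA table holds 1 value per gene and library, log2 RPM, and does not tell P0, P1 and Pα transcripts apart. Young adult libraries held 4.65, 4.62 and 4.34, and aged libraries 4.60, 4.60 and 4.49. The groups overlap, and the library numbered 3 was the lowest of its age in both. Young adult libraries averaged 4.53 ± 0.17 and aged libraries 4.56 ± 0.07 (SD, n = 3 each). The log2 fold change was 0.03 with a standard error of 0.11 (limma, adjusted p = 0.99998), and 0.95 was the adjusted p from limma with the replicate number as a block. The sign rested on young adult replicate 3, since the log2 fold change without it was -0.07. The C57BL/10 libraries held 4.55 (young adult) and 4.63 (aged). Between 416 and 1030 reads lay on Pax6 in each library, from 16952482 to 41053983 reads in all.

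**Figure D3:**
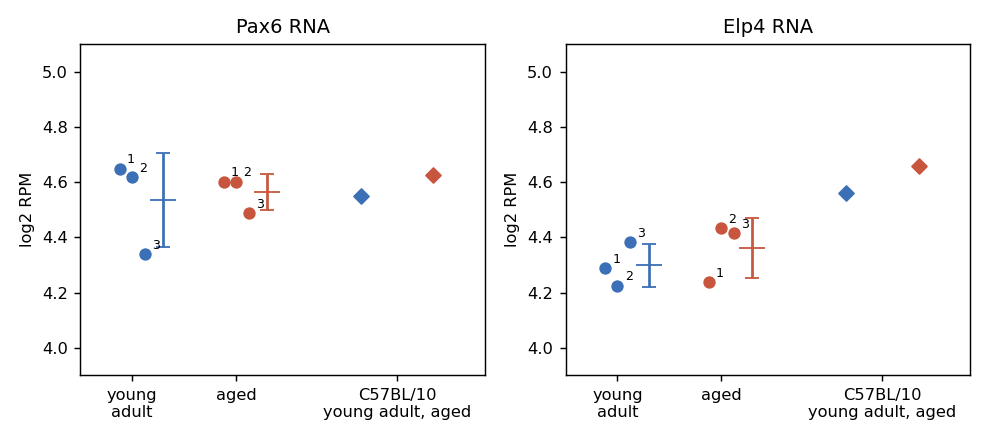
RNA (log2 RPM) of Pax6 and of Elp4, whose annotated end overlaps that of Pax6, in each library. Numbered points are the 3 replicates of an age in C57BL/6JBabr mice with their mean and SD beside them, and diamonds are the single C57BL/10 libraries. Pax6 spans 4.34 to 4.65 in young adult and 4.49 to 4.60 in aged libraries, which overlap.

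The genes next to Pax6 and the rest of its family gave the setting. Elp4, which encodes a subunit of the Elongator complex, is on the opposite strand and overlaps the end of Pax6. The library kit did not mark strand, so reads in the overlap cannot be told apart. Young adult libraries averaged 4.30 ± 0.08 for Elp4 and aged libraries 4.36 ± 0.11 (SD, n = 3 each), with a log2 fold change of 0.06. Of 7 listed neighbours 6 were in the table and 4 (Elp4, Immp1l, Dnajc24 and Rcn1) reached the level for a test. None of these passed (0 of 4), and their log2 fold changes had a median of -0.05. Of the 8 other Pax genes none reached the level for a test, the highest mean log2 RPM being -2.95 (Pax8).

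Over all 14858 genes tested, limma called 0 between the ages, with 258 (1.74%) at an unadjusted p under 0.05, edgeR called 0 (254 at an unadjusted p under 0.05) and DESeq2 4 (0.0269%), while limma with the replicate block called 74 (0.498%). Among 14 transcription factors that act with Pax6 or pattern the forebrain, 12 were tested and 0 passed. Their median was 0.10 in log2 fold change, against 0.0015 over all genes. With the replicate block 1 passed, Gsx1, a homeodomain factor of ventral telencephalic progenitors. Gsx1 held 2.10, 2.97 and 2.15 in young adult and 3.08, 3.45 and 2.73 in aged libraries. Its log2 fold change was 0.68 (adjusted p = 0.99998 from limma, and 0.0434 with the block), higher in the aged library in 3 of 3 replicate numbers. Sox2, which keeps neural progenitors in their state, had a log2 fold change of 0.12 and did not pass. Meis1 (0.26) and Otx2 (-0.78), homeodomain factors as well, did not pass either, with or without the block.

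Of 9 genes listed as downstream of Pax6 in neural progenitors 5 were tested, and of 8 genes of olfactory bulb dopaminergic and periglomerular fate 5 were. None of the 10 passed, with or without the block. In the first list the median log2 fold change was -0.02, and Neurog2, Eomes and Tbr1, genes of the neuronal cascade that Pax6 drives in the cortex, were under the level for a test. Sparcl1, a secreted glycoprotein, had the lowest value of that list (-0.28). In the second list the median was -0.06. Dlx2, a homeodomain factor of interneuron progenitors that acts with Pax6, had a log2 fold change of -0.79, its neighbour Dlx1 -0.46 and Sall3 0.26, while Th, the rate-limiting enzyme of dopamine synthesis, had no read in any library. Dlx1 was the 1 gene of the 5 whose aged libraries (0.89, 0.94 and 0.53) all lay below the young adult ones (1.23, 1.53 and 0.97), and 5.20% of all genes had libraries that did not overlap in this sense.

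The NSPC label was checked on its markers. Nes, Sox2, Msi1, Prom1, Egfr and Fabp7 were all tested, with mean log2 RPM between 2.78 and 10.8, and 0 of the 6 passed. Of 5 microglial markers 2 reached the level for a test, Csf1r being the highest (2.31 to 2.76 over the 8 libraries), while Cx3cr1 and Aif1 stayed at or below -4.08. Of 3 endothelial markers 1 was tested, and Cdh5 stayed at or below -4.24. All 5 astrocyte and all 6 oligodendrocyte lineage markers were tested, as were 3 of 5 neuronal, 1 of 3 pericyte and 2 of 3 ependymal ones. Mean log2 RPM ran from 0.814 to 10 over the astrocyte, from -1.39 to 8.4 over the oligodendrocyte lineage and from -1.14 to 5.8 over the ependymal markers. The highest of each list lay within the range of the NSPC markers, so these levels do not set NSPCs apart. Gfap, an astrocyte filament gene that SVZ stem cells also express, was the 1 tested marker of all these cell types whose libraries did not overlap. Its log2 fold change of -0.54 did not pass, and 5.20% of all genes had libraries without overlap. The part of these cells in the Pax6 values was not tested. In 8 lists of cell type markers, limma called 0 genes with or without the block.

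The 5 genes whose log2 RPM went most closely with Pax6 over the 8 RNA libraries, among 13249 genes that averaged 0 or more in log2 RPM, were Sdad1 (Pearson r 0.975), Fam123b (0.972), BC037034 (0.971), Urb2 (0.967) and Arid3b (0.964). They were picked as the highest, 0.438% of the genes had an r beyond 0.9 in size, and the libraries numbered 3, which hold the lowest Pax6 value of either age, also hold the lowest values of these 5 genes in either age.

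DNA methylation differed between the promoters in every library. The gene and its clusters were chosen with earlier results of these data known, so the tests below cannot be taken as independent of that choice. Percentages are methylated calls among all calls in the same 5000 bp windows, summed per library. A library held 13616283 to 21389132 oxBS calls or 23121086 to 30400033 BS calls in all and a Pax6 window 32 to 306 oxBS calls, so single sites were not compared. At P0, oxBS calls were methylated in 34.5%, 42.6% and 58.0% of young adult and 27.3%, 43.9% and 58.5% of aged libraries. At P1 the values were 7.01%, 13.1% and 12.1% in young adult and 21.2%, 12.9% and 12.9% in aged libraries. At Pα they were 60.0%, 67.2% and 76.7% in young adult and 59.0%, 74.1% and 69.8% in aged libraries. The 6 libraries of P1 lay below all those of P0, and the 6 of P0 below all those of Pα, with no overlap in either case. The highest P0 library (58.5%) was close to the lowest of Pα (59.0%), and promoters of other genes were not compared in this way.

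**Figure D4:**
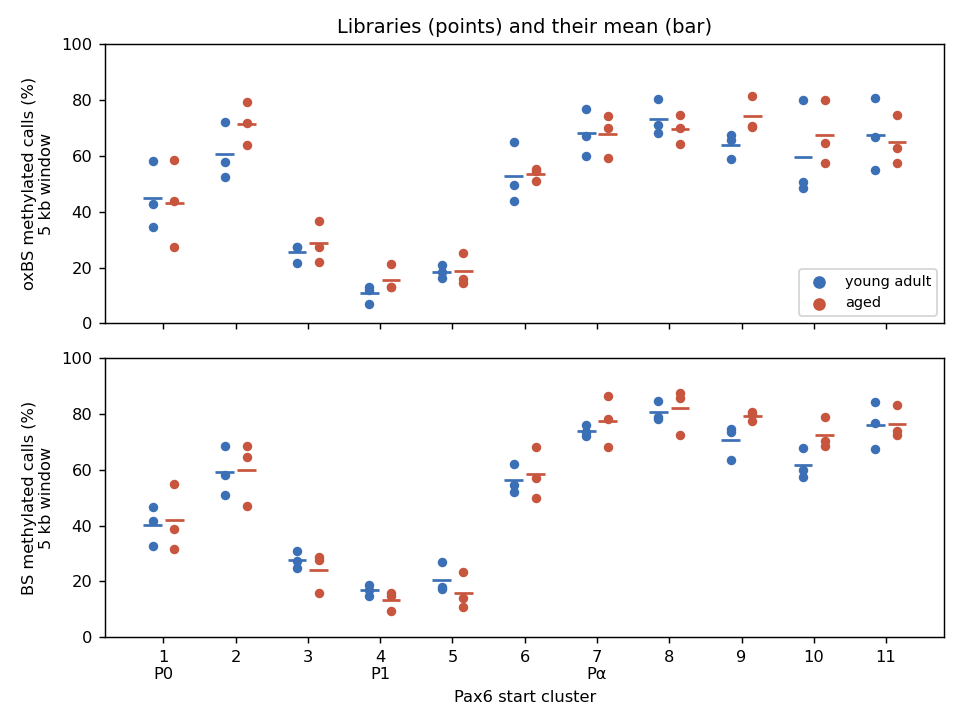
Methylated calls (%) in the 5000 bp window of the median start of each Pax6 start cluster, oxBS above and BS below. Points are the 3 libraries of young adult (blue) and aged (red) NSPCs and bars their means. P1 and its neighbours are lowest (7.01% to 36.8% in oxBS at clusters 3 to 5), P0 is intermediate and clusters 6 to 11 are higher (43.9% to 81.2%), as is cluster 2 (52.5% to 79.2%).

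Between neighbouring clusters 7 of 10 oxBS differences passed an exact paired permutation test over the 6 libraries (two-sided, p = 0.03125, the smallest that 6 libraries allow, and adjusted p = 0.0446 over the 10 pairs). From P0 to cluster 2 the percentage was higher by 22.1 points on average (9.93 to 44.3 over the 6 libraries), and from cluster 5 to cluster 6 by 34.6 points (27.6 to 46.6). From cluster 2 to cluster 3 it was lower in 6 of 6 libraries, with a mean of -39.0 points, and from cluster 3 to P1 likewise, with a mean of -14.0 points. From cluster 6 to Pα it was higher by 4.43 to 18.9 points, in 6 of 6. The 3 pairs from cluster 8 on did not pass. Neighbouring windows share up to 3782 bases and hence calls. How often neighbouring windows of other genes differ 1 way in all 6 libraries was not computed, so the count of 7 has no background. In the BS libraries the same test gave 0 of 10 with an adjusted p of 0.0521 at 6 pairs, all lower or higher in 6 of 6 libraries. The BS differences were 18.5 points from P0 to cluster 2, -33.8 to cluster 3, -10.7 to P1, 38.9 from cluster 5 to cluster 6 and 18.4 to Pα. In windows of 1000 bp it gave 0 of 8 (smallest adjusted p = 0.125, exact permutation test), although P0 to cluster 2 (66.9 points) and cluster 3 to P1 (-62.3 points) went 1 way in 6 of 6. The pairs with cluster 8 lacked calls in a library.

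In steps of 1 kb the stretch with methylated calls at or near 0 reached from 6 to 8 kb downstream of the first start. From 6 to 7 kb, 0 of 150 oxBS calls in young adult and 0 of 121 in aged NSPCs were methylated, and from 7 to 8 kb 0.830% of 241 and 0.893% of 224. From 8 to 9 kb 2.33% of 43 and 7.14% of 56 oxBS calls were methylated, and 8.70% of 69 and 8.89% of 90 BS calls. In the 1000 bp around the median start of the P1 cluster, 1 of 274 oxBS calls was methylated (0.365%, exact 95% interval 0.00924% to 2.02%) and 5 of 401 BS calls (1.25%, 0.406% to 2.89%). Around the median P0 start, 42 of 257 oxBS calls were methylated (16.3%, 12.04% to 21.4%), and around that of the Pα cluster 108 of 174 (62.1%, 54.4% to 69.3%). These intervals cover counting error only. In the step before, from 5 to 6 kb, the mean of the 3 libraries was 32.1% in young adult (16.2% to 45.3%) and 55.05% in aged NSPCs (44.0% in the lowest library). From 9 to 10 kb the means were 23.3% (0% to 50.0%) and 43.1% (25.0% to 61.5%), so the libraries of the ages overlapped at both edges. In BS calls the order of the means was the opposite at both edges, at 56.5% (young adult) and 53.9% (aged) from 5 to 6 kb, and 45.96% and 35.5% from 9 to 10 kb.

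**Figure D5:**
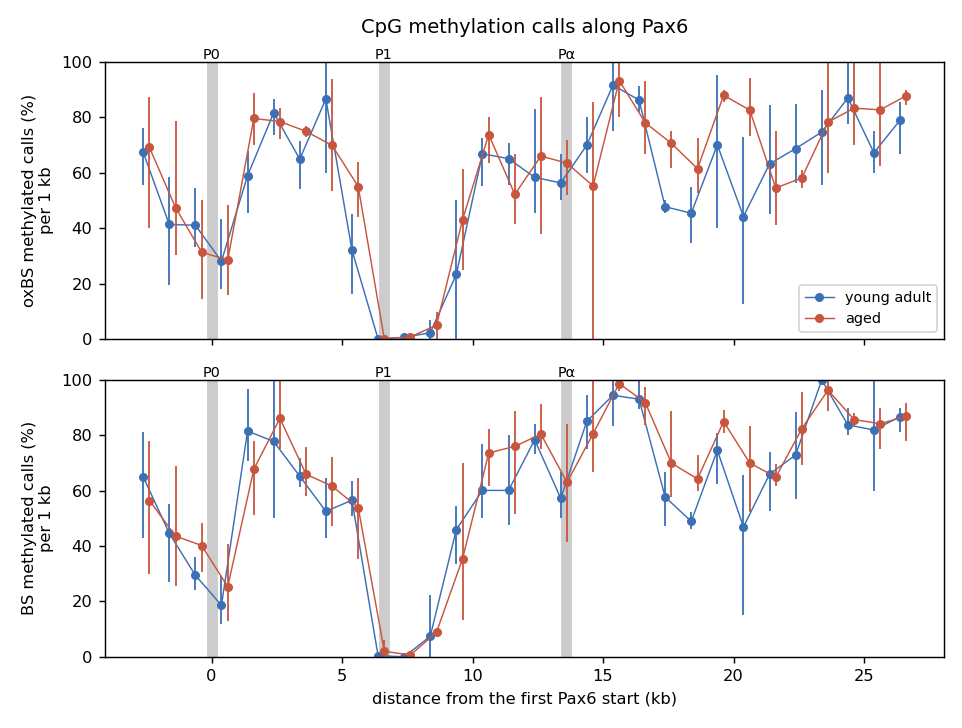
Methylated calls (%) per 1 kb along Pax6 against the distance from the first start (kb), oxBS above and BS below. Points are the mean of the 3 libraries of an age (2 in one step with few calls), vertical lines reach from the lowest to the highest library, and grey bars mark P0, P1 and Pα. Both ages are at or near 0 from 6 to 8 kb and no mean lies below 44.2 from 10 kb on.

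Between the ages, no Pax6 window passed in either assay. In oxBS calls the quasi-binomial model called 0 of 69710 windows (3708, or 5.32%, at an unadjusted p under 0.05) and 0 of the 27 Pax6 windows, none of which had an unadjusted p under 0.05. With the replicate number as a block it again called 0, and 1 Pax6 window had an unadjusted p under 0.05. That window was cluster 2 (quasi-binomial model with the block, p = 0.0279, adjusted p = 0.865), and 3938 of all 69710 windows were under 0.05. At the 3 promoters the oxBS differences, aged minus young adult, were -1.83 points at P0, 4.91 at P1 and -0.32 at Pα (exact permutation tests of 3 against 3, p = 1, 0.3 and 0.9, where 0.1 is the smallest possible). The P1 difference was 2.14 points without aged replicate 1 and 3.05 without young adult replicate 1. The largest differences were 10.8 points at cluster 2 and 10.2 at cluster 9. At cluster 2 the libraries of the ages overlapped, the difference was 0.67 points in BS calls and -5.32 in oxBS windows of 1000 bp, and it ran from 6.62 (without young adult replicate 2) to 16.3 (without young adult replicate 3). At cluster 9 the 3 aged libraries (70.3%, 70.7% and 81.2%) all lay above the young adult ones (58.7%, 65.5% and 67.6%), with a difference of 6.59 points without aged replicate 3, and 5.69% of all windows did so (10.2% did not overlap in either direction). In windows of 1000 bp the oxBS libraries of cluster 6 did not overlap, and those of cluster 9 did. At cluster 6 the difference was -17.9 points (exact permutation test, p = 0.1), and -9.66 without young adult replicate 3. Its libraries held 11 to 26 calls each. The share of all promoter windows without overlap was not computed at 1000 bp, so this case has no background.

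In BS calls the model called 0 of 71037 windows (3461, or 4.87%, at an unadjusted p under 0.05). The 3 Pax6 windows of clusters 9 and 10 had an unadjusted p under 0.05, of 27 overlapping ones. At cluster 9 BS calls were methylated in 74.4%, 73.4% and 63.4% of young adult and 77.4%, 80.5% and 80.0% of aged libraries, and at cluster 10 in 57.4%, 60.0% and 67.9% against 70.1%, 68.3% and 78.8%. At cluster 10 the oxBS libraries overlapped, with a difference of 7.61 points (exact permutation test, p = 0.6) that was 1.25 without aged replicate 3, and the BS libraries overlapped with the mean of single positions. In these BS windows the aged libraries lay above all young adult ones in both clusters, as they did in 5.11% of all windows (9.60% did not overlap in either direction). The differences were 8.87 and 10.7 points (exact permutation test, p = 0.1 each, the smallest possible), and that at cluster 9 was 5.35 without young adult replicate 3. In windows of 1000 bp the difference at cluster 9 turned to -3.58 points in BS and -10.7 in oxBS calls. A library held as few as 18 BS or 3 oxBS calls there. The BS difference was -3.60 points at P1, 1.54 at P0 and 3.66 at Pα, with exact permutation p of 0.2, 1 and 0.6, and at P1 it was -1.64 without aged replicate 1. At P1 oxBS and BS differences thus had opposite signs.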

How the data were processed

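RNA, native ChIP, BS and oxBS libraries were made from 3 young adult and 3 aged derivations, and RNA from 1 C57BL/10 derivation per age. RNA and ChIP values were deposited as log2 RPM by the authors, ChIP as 1 value per age over the replicates in windows of 5000 bp. Counts of methylated and unmethylated calls per position were deposited per library. The deposited percent per position was used only as a check. The labels name STAR 2.3.0, Bowtie2 2.2.5, Bismark 0.12.5, Trim Galore 0.4 and 0.3.7, bcl2fastq 2.15.0.4, FastQC 0.10.1 and GRCm38, without roles. Of 2140 called positions around Pax6, 99.7% fell on a CpG of the GRCm38.p6 genome.

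Whole reads were recovered from the RPM (all values from 1 to 1000 reads whole within 0.02 reads, a gene without a read being listed at 0.9 reads) for edgeR and DESeq2. Genes averaging -2 or more in log2 RPM were tested for age with limma (moderated test, trended prior variance, Benjamini-Hochberg adjustment), and edgeR or DESeq2 served as alternatives. A quasi-binomial model compared the methylated share of windows that held 10 or more calls in each library, called at an adjusted p under 0.05 and 10 percentage points. Scripts were tested on simulated data. The gene, its clusters, the lists and the rule for named genes (Pax6, Pax6os1, the 5 genes closest in RNA, the 5 widest in H3K4me3 change, and up to 4 members of each list) were chosen with earlier results of these data known. In RNA, deviations of libraries with the same replicate number correlated (0.659, 0.179 and 0.724 over 14858 genes), so the numbers were taken to pair them, although the sources used here do not say that they share a day. The limma test without the block leaves this pairing out and called 0 genes, where the block called 74. Versions were limma 3.58.1, DESeq2 1.42.0 and edgeR 4.0.16 under R 4.3.3.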

Additional observations from a re-analysis of the deposited data

How the results depend on the processing

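The direction of Pax6 RNA held on log2(RPM + 1), in edgeR and in DESeq2, and the block and the low filter cannot change its fold change. Without single libraries it ran from -0.069 to 0.086, below 0 without young adult replicate 3. The count of RNA genes past the threshold was 0 without each library in turn, with no low filter, on log2(RPM + 1) and in edgeR, 74 with the replicate block and 4 in DESeq2. Gsx1 passed only with the block (0.68, adjusted p = 0.0434), and Sall3 ran from -0.011 to 0.50 without single libraries. Over the same settings Dlx2 ran from -1.21 (without young adult replicate 3) to -0.39 (without aged replicate 3), Sparcl1 from -0.52 (without young adult replicate 1) to -0.11 (without young adult replicate 2), Elp4 from 0.027 (without young adult replicate 2) to 0.126 (without aged replicate 1) and Sox2 from 0.03 (without aged replicate 3) to 0.19 (without young adult replicate 3). Among the genes whose RNA is described, the block changed no other call. The Pax6 windows lower in H3K4me3 numbered 9, and 7 to 11 over the alternatives (7 at 2-fold, 10 with Input subtracted, 11 with the median change subtracted and 11 at a level of 0). In H3K27me3 1 window passed at a level of 0, and 0 under the other alternatives. Starts fell into 13 clusters with gaps of up to 250 bp and 4 with gaps of up to 2500 bp, where P1 and Pα share a cluster.

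Clusters whose oxBS libraries did not overlap between ages numbered 1, and 1 to 4 without single libraries (4 without young adult replicate 3, 2 without young adult replicate 2 or aged replicate 1). In BS libraries they numbered 2, and 2 to 4 without single libraries (4 without aged replicate 1 or 3), 0 in windows of 1000 bp and 1 with the mean of single positions. With all 6 libraries 10.2% (oxBS) and 9.60% (BS) of all windows did not overlap, and 2 libraries against 3 overlap less often by construction, so these counts cannot be compared with those from fewer libraries. The count of neighbouring oxBS pairs that passed, 7, was 0 in windows of 1000 bp and 0 in BS libraries. All 7 stood at the smallest possible p, so a pass depended on how many pairs tied there. Too few tied in BS libraries, with -33.8 points from cluster 2 to 3 and 38.9 from cluster 5 to 6. In windows of 1000 bp too few tied as well, with 66.9 points from P0 to cluster 2 and -62.3 from cluster 3 to P1. Against the window of 5000 bp, the difference between ages reversed in windows of 1000 bp at P1 (oxBS -0.41, BS 1.49 points), Pα (oxBS 11.2) and cluster 9 (oxBS -10.7, BS -3.58), and with the mean of single positions at P0 (oxBS 0.63). It also reversed in windows of 1000 bp at clusters 2 (oxBS -5.32), 3 (BS 4.03), 6 (oxBS -17.9) and 11 (oxBS 3.62, BS -3.70), and with single positions at cluster 6 (oxBS -0.035). These short windows held few calls. The library with fewest oxBS calls had 3 at cluster 9, 5 at cluster 11, 9 at cluster 2 and 11 at cluster 6. At P1 the oxBS difference rested on 1 methylated call of 274. Without single libraries the oxBS difference ran from -9.47 to 6.13 at P0 and from -4.31 to 4.06 at Pα (above 0 in both without young adult replicate 3 or aged replicate 1), and the BS difference from -5.00 to 6.59 at P0 (below 0 without young adult replicate 1 or aged replicate 3) and from -0.75 to 8.41 at Pα (below 0 without aged replicate 2). The causes were not tested. No promoter window was called under any alternative in oxBS or BS calls. Deviations of methylation libraries with the same number correlated by 0.0187 to 0.0631 over windows with at least 100 calls. This was below the limit of 0.1, so the numbers were not taken to pair them. Counting error in windows of few calls lowers such a correlation, so it cannot show that pairing is absent. The replicate block gave 0 calls in both assays, and the test paired by number gave p of at least 0.25, the smallest 3 pairs allow.

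ChIP values without replicates allow no error on any age difference. At 1.20 to 1.48 calls per covered position, a change at single CpG sites was not detectable.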

Other observations

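Among 8848 genes with at least 2 windows above a log2 RPM of 1, Pax6 had the 2nd widest range of H3K4me3 differences among its own windows (1.35 on the log2 scale, from -1.23 to 0.12), where the median gene had 0.0039. The other genes of this kind were Parl (1.53), a mitochondrial rhomboid protease, Mid1 (1.35), a ubiquitin ligase of microtubules, Arpp21 (1.14), Lrrc8d (1.11), a subunit of volume-regulated anion channels, and Bzrap1 (1.05). Pax6 had 24 windows above that level, against 8 for Parl, 6 for Mid1, 11 for Arpp21, 9 for Lrrc8d and 9 for Bzrap1. A range can grow with the number of windows, and the rank takes no account of it. Of the 8848 genes 37 had a window lower by the rule, and 6 had such a window beside one that moved by less than 0.1. The gene was chosen for its H3K4me3, so its rank is a description.

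P0 held H3K27me3 at the 97.5th and H3K4me3 at the 49.5th percentile of all windows in young adult NSPCs. Both marks were above 3.5 in 1894 windows (2.60%), a level set just under the H3K4me3 at P0 after its values were seen.

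At P0 the libraries numbered 3 had more methylated calls than those numbered 1 in all 4 sets (young adult and aged, oxBS and BS), by 13.8 to 31.2 points. This was noticed in the values. Of 56471 windows with at least 30 calls in every library, 8.85% had the libraries numbered 3 above those numbered 1 in all 4 sets and 5.25% had the reverse. In 17 windows the difference was as large in all 4 sets, at a limit set by P0 itself, and 3 of them are the overlapping P0 windows of Pax6. Over the genome the libraries numbered 3 held 71.8% to 72.9% and those numbered 1 held 70.5% to 71.6% methylated calls. The libraries numbered 3 also had the lowest Pax6 RNA of either age.

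The BS minus the oxBS percentage of libraries with the same age and number, a reading of 5hmC from 2 separate libraries, was above 0 in 6 of 6 cases at cluster 11 (3.82 to 16.2 points) and in 5 of 6 at Pα, at cluster 8 and at P1, where it ran from -11.8 to 11.8 points with a mean of 1.89. Over the genome BS libraries held 71.5% to 72.9% and oxBS libraries 70.5% to 71.9% methylated calls, BS being higher in 6 of 6 pairs, and the clusters were not compared with other windows. At P0 it was above 0 in 1 of 6 (-11.5 to 4.42 points), and negative values show the error of these differences.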
